A study of Homo sapiens with 6 samples.

Results

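The genes described here encode the endoplasmic reticulum machinery that builds N-linked glycans, transfers them to new proteins and begins to trim them. They were chosen by name, with earlier results of these data known, as 37 symbols among the 60612 rows (50229 symbols) of the deposited gene table. A symbol with several rows was represented by the row with the highest mean level. The 37 genes fall into 3 groups by role, with 19 genes of lipid-linked glycan assembly, 10 of the oligosaccharyltransferase and 8 of trimming and the calnexin cycle. Poly(A) RNA was sequenced in 6 libraries whose labels name Hep3B, an established line from a human hepatocellular carcinoma. In 3 of them (siEIF4G2) the cells received an siRNA at 50 nM that targets EIF4G2, a translation initiation factor, and in the other 3 (siNC) a control siRNA at 50 nM. The comparison asks which transcripts differ after EIF4G2 is silenced. All 6 libraries carry the same line label and no other genotype or agent is named, and it is not stated whether replicates come from separate cultures. The p-values therefore refer to the spread among these 6 libraries alone, and that spread may be technical.

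An N-linked glycan is assembled sugar by sugar on dolichol, a long lipid carrier in the membrane of the endoplasmic reticulum. The oligosaccharyltransferase then moves the finished glycan as a block onto asparagine residues of proteins that are entering the reticulum. Glucosidases remove the outer glucose residues in turn, and the lectin chaperones calnexin and calreticulin hold glycoproteins with a single glucose left until they have folded. The liver secretes many such glycoproteins.

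The libraries held 63351653 to 72863628 counts, and EIF4G2 itself read 17.9, 17.6 and 20.0 FPKM in siEIF4G2 replicates 1, 2 and 3 against 107, 89.4 and 97.8 FPKM in siNC replicates 1, 2 and 3 (edgeR log2 fold change -2.43, SE 0.09, adjusted p = 0.000207). FPKM is a level per gene length and library depth. The line label was not matched by hepatocyte markers: 7 of 10 (AFP, ALB, the apolipoproteins APOA1 and APOB, FGB, GPC3 and TTR) had a count of 0 in all 6 libraries, and the 10 summed to 0.124 to 0.363 CPM (counts relative to library size) in siEIF4G2 and 0.0597 to 0.184 CPM in siNC. The 5 epithelial markers summed to 1977 to 2221 CPM in siEIF4G2 and 2270.4 to 2324 CPM in siNC, nearly all of it from the keratins KRT8 and KRT18, of which KRT18 fell (log2 fold change -0.18, edgeR adjusted p = 0.019). The others were near 0, with EPCAM at 0 to 0.0568 CPM, CDH1 at 0.142 to 0.452 CPM and KRT19 at 0.497 to 0.881 CPM. The 6 fibroblast markers summed to 622 to 659 CPM and 533 to 560.1 CPM, with COL3A1, DCN and LUM higher and COL1A1 and PDGFRB lower after silencing, and the 4 endothelial markers to 3.33 to 4.12 CPM and 10.1 to 10.9 CPM. The 5 adipocyte and 5 leukocyte markers summed to under 1 CPM in each library. The part of these marker differences in the results below was not tested.

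GANAB, a glucosidase subunit, rose 2.30-fold after EIF4G2 silencing, MAGT1, an oligosaccharyltransferase subunit, rose 2.04-fold, and 9 of the other genes fell, by 1.18-fold to 1.40-fold. Of the 37 genes, 36 passed the filter on low values and were tested, all but TUSC3. At an edgeR adjusted p of 0.05, 2 of the 36 were higher (5.56%), 9 were lower (25%) and 25 did not pass. Over all 13748 tested genes the background was 15.9% higher and 17.6% lower, 33.4% in either direction. The 30.6% of these genes called in either direction lies near that background. The 9 called lower became 3 without siNC replicate 1 (8.33% of the 36, against 13.0% of all tested genes), 4 without siNC replicate 3 or siEIF4G2 replicate 1 (11.1%, against 13.7% and 13.8%) and 5 without siNC replicate 2 (13.9%, against 13.3%). In these 4 fits the share called lower lay near or below the background. The median log2 fold change was -0.17 over the 36 genes and 0.01 over all tested genes, and 29 of the 36 were negative (80.6%) against 49.1% of all tested genes. Because the genes were chosen with earlier results of these data known, such contrasts with the background are not independent of the data. CPM values of the groups did not overlap for 19 of the 36 genes (52.8%), 4 higher and 15 lower, against a background of 50.6%. The plot of fold changes shows how these genes are spread over the 3 groups. In bulk RNA, fewer cells of a type and less RNA per cell cannot be told apart.

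**Figure D1:**
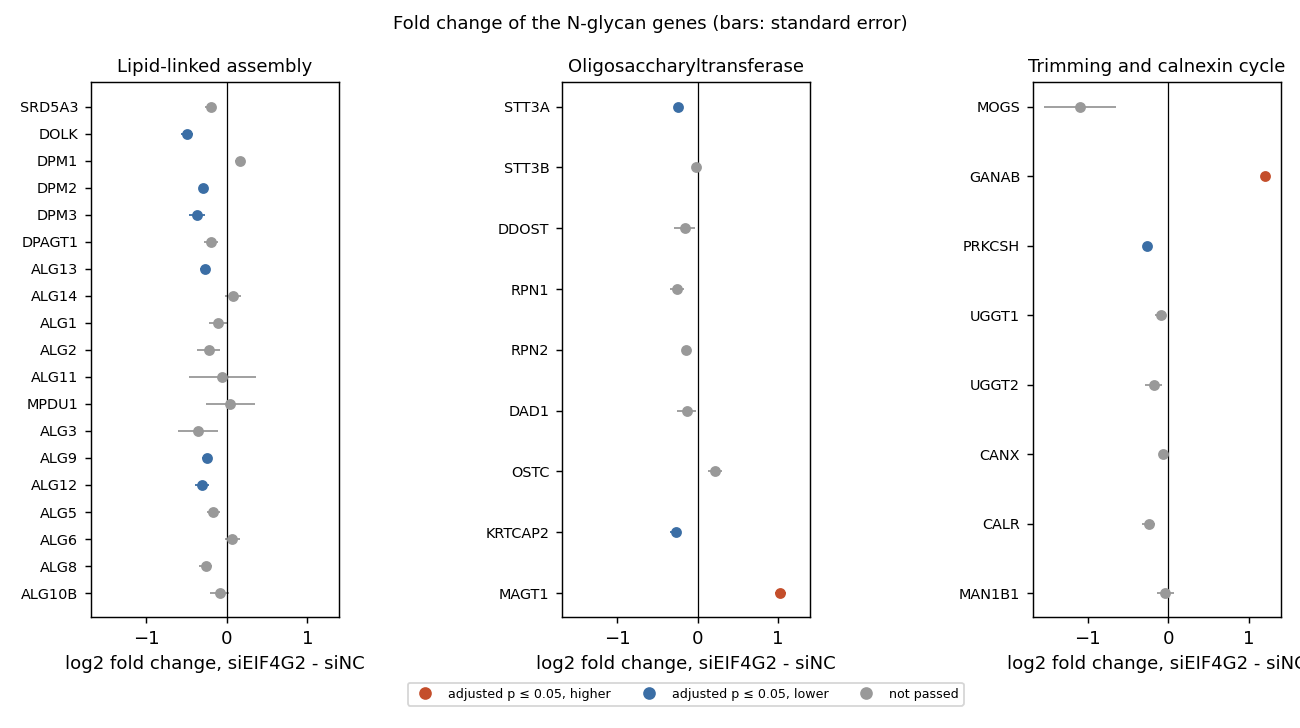
Log2 fold change of siEIF4G2 against siNC (horizontal axis) for the 36 tested genes, in panels by role, with bars for the standard error. GANAB and MAGT1 stand at 1.20 and 1.03, the 9 genes marked lower lie between -0.49 and -0.24, and MOGS at -1.10 has the widest bar of its panel.

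The stretches of genome just upstream of GANAB and MAGT1 are shown because these are the 2 genes that rose. They come from RefSeq promoter windows on GRCh38.p14, limited to bases outside the deposited interval of any gene, and are written 5′ to 3′ on the minus strand, on which both genes lie. Capitals mark the CCAAT box, letters CCAAT on either strand. The GANAB stretch is chr11:62646727-62646847 and ends 114 bases before the RefSeq start. The MAGT1 stretch is chrX:77895594-77895793 and ends 26 bases before the RefSeq start.
GANAB: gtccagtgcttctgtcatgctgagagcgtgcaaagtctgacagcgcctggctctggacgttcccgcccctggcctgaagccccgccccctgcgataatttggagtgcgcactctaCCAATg
MAGT1: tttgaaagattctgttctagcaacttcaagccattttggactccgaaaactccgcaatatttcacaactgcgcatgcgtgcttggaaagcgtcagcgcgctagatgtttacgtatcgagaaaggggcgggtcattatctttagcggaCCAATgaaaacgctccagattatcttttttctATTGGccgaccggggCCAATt
The GANAB stretch holds 1 CCAAT box and the MAGT1 stretch holds 3. Over whole windows, from 250 bases before to 50 after the start, 19 of the 33 genes with a RefSeq window hold a CCAAT box. Of all 35116 windows, 34.6% hold it. The first is a count of genes and the second a share of windows. A gene can have several windows, so these cannot be compared directly. These matches describe letters and not bound sites.

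Beside the CCAAT box, the endoplasmic reticulum stress element (ERSE, letters CCAAT and CCACG with any 9 bases between them, on either strand, so each match also holds a CCAAT box) was sought in the same windows, since chaperone and glycan genes of the reticulum are known to carry it. It was found in 27 windows, 0.0769% of all, and in 3 of the 33 matched genes, CALR, CANX and ALG12. The CANX site lies in several windows of that gene, so shares of windows and of genes are again not on the same scale. Capitals mark the element in the sites below, each written on the strand of its gene.
CALR, chr19:12938379-12938407, plus strand: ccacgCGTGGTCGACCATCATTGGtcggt
CANX, chr5:179698773-179698801, plus strand: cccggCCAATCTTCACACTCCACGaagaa
ALG12, chr22:49918549-49918577, minus strand: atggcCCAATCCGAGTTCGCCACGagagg
The ALG12 site lies upstream of the RefSeq starts of both ALG12 and CRELD2, a stress-induced gene read in the opposite direction, and is found in the windows of both. In the deposited table the 2 intervals overlap by 272 bases and the site lies inside that of CRELD2. ALG12 fell (log2 fold change -0.30) while CRELD2 read -0.07 (edgeR adjusted p = 0.571), and CALR and CANX did not pass the test at -0.25 and -0.07. The related elements ERSE-II (ATTGG and CCACG with any 1 base between them, 0.0541% of windows) and UPRE (TGACGTGG, 0.729%) were found in 0 of the 33 genes. No match says only that these letters are not in this window. MOGS, RPN1, STT3B and TUSC3 had no window matched.

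Dolichol phosphate and its mannose-charged form are made by 5 of these genes, and DOLK, DPM2 and DPM3 fell. DOLK, the kinase that makes dolichol phosphate, read 13.4, 15.1 and 13.6 FPKM in siEIF4G2 replicates 1, 2 and 3 and 19.0, 20.1 and 18.9 FPKM in siNC replicates 1, 2 and 3. Every silenced library lay below every control, and DOLK (ENSG00000175283, chr9:128945530-128947603, minus strand) was 1.40-fold lower (14.1 ± 0.921 against 19.3 ± 0.642 FPKM, SD, n = 3 each; log2 fold change -0.49, SE 0.07, edgeR adjusted p = 0.00468). This was the largest fall among the called genes of the set. NUP188, a nucleoporin gene that starts 96 bases from DOLK on the other strand, read 32.7 ± 0.45 and 31.7 ± 0.766 FPKM (log2 fold change 0.02, adjusted p = 0.737). SRD5A3, the reductase that makes dolichol from polyprenol, read 3.99, 3.78 and 4.21 against 4.58, 4.28 and 4.62 FPKM. Its groups did not overlap, yet it did not pass (log2 fold change -0.19, adjusted p = 0.0721).

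DPM1, DPM2 and DPM3 form dolichol phosphate mannose synthase, in which DPM1 is the catalytic subunit and DPM2 and DPM3 hold it at the membrane. The 2 membrane subunits fell and the catalytic one did not pass the test. DPM2 read 23.8, 22.8 and 22.4 FPKM after silencing and 27.7, 28.9 and 26.5 FPKM in the controls, 1.23-fold lower (log2 fold change -0.29, SE 0.05, edgeR adjusted p = 0.00848). DPM3 read 19.6, 21.3 and 20.7 against 23.8, 28.6 and 25.6 FPKM, 1.29-fold lower (-0.37, SE 0.09, adjusted p = 0.0289). For both genes all 3 silenced libraries lay below all 3 controls. DPM1 read 35.8, 39.1 and 35.2 against 32.6, 31.7 and 32.1 FPKM, higher in each silenced library than in any control (log2 fold change 0.17, SE 0.07, adjusted p = 0.0994). The ratio of DPM1 to DPM3 FPKM was 1.83, 1.84 and 1.70 after silencing and 1.37, 1.11 and 1.25 in the controls. These values did not overlap and their means differed 1.44-fold (log2 difference 0.53, SE 0.10; exact two-sided permutation p = 0.1, 0.15 adjusted over 6 ratios), where 0.1 is the smallest p that 3 libraries against 3 allow. The DPM3 call was lost without siEIF4G2 replicate 1 or 3 and without siNC replicate 2 or 3, with adjusted p of 0.0709 to 0.0876.

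The first sugars are added on the cytosolic face of the membrane, and of the 6 genes of this step ALG13 alone fell. ALG13 carries the catalytic site for the addition of the second N-acetylglucosamine and works with ALG14, its membrane anchor. It read 2.75, 2.90 and 2.97 FPKM after silencing against 3.47, 3.35 and 3.41 FPKM in the controls. With no overlap, ALG13 was 1.21-fold lower (log2 fold change -0.27, SE 0.06, edgeR adjusted p = 0.0167). ALG14 read 0.907 ± 0.0525 and 0.842 ± 0.0550 FPKM (log2 fold change 0.08, adjusted p = 0.558), with groups that overlapped. DPAGT1, which adds the first sugar phosphate and is the target of tunicamycin, read 5.63, 6.14 and 5.12 against 6.50, 6.33 and 6.22 FPKM. Its groups did not overlap (-0.20, SE 0.09, adjusted p = 0.127), and of the settings run it passed only when siEIF4G2 replicate 2 was left out (adjusted p = 0.0371). DPAGT1 overlaps C2CD2L on the other strand by 6134 bases, and the use of strand in counting is not given. The ALG13 call was lost without siNC replicate 1 (adjusted p = 0.0569).

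The cytosolic mannosyltransferases ALG1, ALG2 and ALG11 did not pass. ALG1, which adds the first mannose, read 6.24 ± 0.0186 and 6.61 ± 0.987 FPKM (log2 fold change -0.11, adjusted p = 0.486). ALG2, which adds the next mannoses, read 9.45, 9.91 and 13.7 FPKM against 12.8, 12.8 and 12.3 FPKM. Silenced replicate 3 lay above every control while the others lay below, and without that library the log2 fold change went from -0.22 to -0.40 with an adjusted p of 0.0143. ALG11, which adds the last mannoses on the cytosolic side, read 1.03, 0.491 and 0.996 FPKM against 0.603, 1.34 and 0.612 FPKM. Its groups overlapped fully, and its counts are uncertain because its interval shares 8910 bases on the same strand with UTP14C, a ribosome biogenesis gene. UTP14C counts were 2347, 2145 and 2153 after silencing and 137, 1229 and 2448 in siNC replicates 1, 2 and 3, a wide spread among the controls. With the counts of both genes summed, the locus read 45.8, 39.6 and 47.3 against 10.6, 37.3 and 43.5 CPM (log2 fold change 0.54, SE 0.48, edgeR adjusted p = 0.433).

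On the luminal side, mannoses are added by ALG3, ALG9 and ALG12 and glucoses by ALG6, ALG8 and ALG10B, and ALG9 and ALG12 fell. ALG9 read 5.37, 5.74 and 5.55 FPKM after silencing and 6.51, 6.33 and 6.57 FPKM in the controls. It was 1.19-fold lower with no overlap (log2 fold change -0.25, SE 0.05, edgeR adjusted p = 0.0167). ALG12 read 3.10, 3.50 and 3.08 FPKM against 3.99, 3.97 and 3.79 FPKM, also with no overlap, and was 1.24-fold lower (-0.30, SE 0.08, adjusted p = 0.0345). Both calls depended on single libraries. That of ALG9 was lost without siEIF4G2 replicate 1, siNC replicate 1 or siNC replicate 3 (adjusted p of 0.0535 to 0.0568), and that of ALG12 without any library but siEIF4G2 replicate 2 (0.0664 to 0.102). ALG8, which adds the second glucose, read 28.8, 24.3 and 29.3 FPKM against 33.2, 30.0 and 33.7 FPKM. It was, with DPM1, the most abundant assembly gene in the controls, its groups did not overlap, and it did not pass (log2 fold change -0.26, SE 0.08, adjusted p = 0.0515), although DESeq2 on the same libraries gave an adjusted p of 0.0289.

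The remaining assembly genes overlapped between the groups. ALG3, which adds the first luminal mannose, read 11.97, 19.3 and 12.5 against 23.1, 16.5 and 15.6 FPKM (log2 fold change -0.36, adjusted p = 0.31). MPDU1, needed for the use of dolichol-linked mannose and glucose, read 11.7, 14.8 and 11.9 against 17.8, 7.60 and 11.0 FPKM. The highest MPDU1 control was 2.34 times the lowest, so the spread within 1 group exceeded any difference between the groups (log2 fold change 0.05, SE 0.31, adjusted p = 0.923). ALG5, which makes dolichol phosphate glucose, read 9.46, 8.65 and 8.37 against 10.3, 9.12 and 9.66 FPKM (-0.16, adjusted p = 0.167). ALG6, which adds the first glucose, read 0.07 on the log2 scale (adjusted p = 0.61), and ALG10B, which adds the last and may share reads with its near-identical copy ALG10, read -0.09 (adjusted p = 0.626). Over the whole assembly group 0 of 19 rose, 6 fell and 13 did not pass, with a median log2 fold change of -0.20. Over all tested genes 15.9% rose and 17.6% fell, and the 6 became 3 without siEIF4G2 replicate 1, siNC replicate 1 or siNC replicate 3. The plot of levels shows that these genes lie low beside the later machinery, with control means of 0.842 to 32.3 FPKM and a median of 6.61 FPKM.

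**Figure D2:**
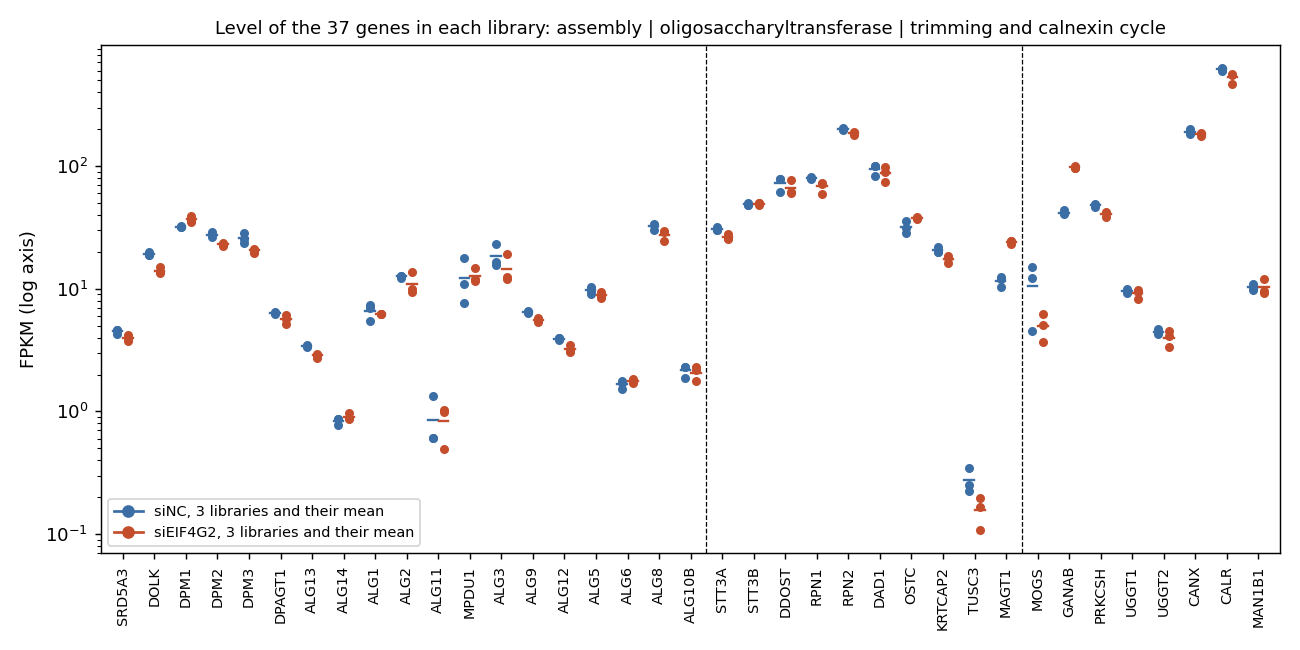
FPKM of all 37 genes in each of the 6 libraries, on a log axis, with a short line at each group's mean and dashed lines between the groups of genes. CALR, RPN2 and CANX stand highest, TUSC3 lowest, and GANAB and MAGT1 are the genes whose silenced libraries lie clear above the controls by the widest margin.

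The oligosaccharyltransferase exists in STT3A and STT3B forms, named for their catalytic subunits, and STT3A fell while STT3B did not pass. STT3A, which acts on proteins as they enter the reticulum, read 25.4, 27.8 and 26.1 FPKM after silencing and 30.0, 30.1 and 31.7 FPKM in the controls. No silenced library reached a control, and STT3A was 1.18-fold lower (26.4 ± 1.24 against 30.6 ± 0.929 FPKM, SD, n = 3 each; log2 fold change -0.24, SE 0.06, edgeR adjusted p = 0.0222). STT3B, which reaches sites that STT3A skipped, read 50.0, 47.7 and 50.0 FPKM against 50.1, 48.5 and 48.0 FPKM. The STT3B groups overlapped, with a log2 fold change of -0.01 (SE 0.04, adjusted p = 0.794). The ratio of STT3A to STT3B was 0.507, 0.582 and 0.521 after silencing and 0.599, 0.621 and 0.660 in the controls. All silenced ratios lay below all control ratios, with a log2 difference of -0.22 (SE 0.07; exact two-sided permutation p = 0.1, 0.15 adjusted over 6 ratios). The STT3A call was lost when any library but siEIF4G2 replicate 2 was left out (adjusted p of 0.0533 to 0.0729).

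The accessory subunits of the STT3A form are KRTCAP2 and OSTC, which join it to the protein translocation channel, and KRTCAP2 fell while OSTC did not pass. KRTCAP2 read 16.2, 17.8 and 18.3 FPKM after silencing against 20.0, 20.1 and 21.9 FPKM. It was 1.21-fold lower, with each silenced library below each control (log2 fold change -0.27, SE 0.07, edgeR adjusted p = 0.0289). OSTC read 38.6, 36.7 and 37.5 FPKM against 28.3, 35.6 and 31.1 FPKM, so each silenced library lay above each control. It did not pass (log2 fold change 0.22, SE 0.09, adjusted p = 0.0991), although it did without siNC replicate 2, its highest control (0.31, adjusted p = 0.0244). The KRTCAP2 call was lost without siEIF4G2 replicate 1 or any of the siNC libraries (adjusted p of 0.0577 to 0.0837).

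MAGT1 and TUSC3 are the alternative oxidoreductase subunits of the STT3B form, and MAGT1 rose. MAGT1 (ENSG00000102158, chrX:77825747-77895593, minus strand) read 24.3, 23.3 and 24.5 FPKM after silencing and 10.3, 12.5 and 11.9 FPKM in the controls. The lowest silenced library lay well above the highest control, and the log2 fold change was 1.03 (24.1 ± 0.627 against 11.6 ± 1.11 FPKM, SD, n = 3 each; SE 0.07, edgeR adjusted p = 0.000481). A call with at least a 2-fold rise was made for 0.96% of all tested genes, and among these 36 for MAGT1 and GANAB. A 2-fold fall was called for 2.59% of all tested genes and for 0 of these 36. This contrast, too, is for genes chosen with earlier results of these data known. MAGT1 kept its call under each of 15 alternative settings, with log2 fold changes of 0.96 to 1.08. TUSC3 read 0.197, 0.167 and 0.108 FPKM against 0.224, 0.252 and 0.346 FPKM, from 43 to 154 counts per library, and stayed under the filter. Its silenced libraries all lay below its controls, without a test across genes. The ratio of MAGT1 to TUSC3 was 124, 140.2 and 228 after silencing and 46.2, 49.6 and 34.4 in the controls. Ratios of the groups did not overlap and their means on the log2 scale differed by 1.88 (SE 0.31; exact two-sided permutation p = 0.1, 0.15 adjusted over 6 ratios), with TUSC3 near the limit of what was counted.

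The shared core of the complex did not pass the main test. RPN1 and RPN2, the ribophorins, and DDOST and DAD1 are found in both forms. RPN2 read 179, 187 and 190.1 FPKM against 197, 199 and 206 FPKM, and RPN1 read 73.5, 71.7 and 59.5 FPKM against 78.6, 80.1 and 80.8 FPKM. Both lay lower in every silenced library, with log2 fold changes of -0.14 (SE 0.04, edgeR adjusted p = 0.0516) and -0.25 (SE 0.09, adjusted p = 0.0719). RPN1 passed without siEIF4G2 replicate 3, its lowest library, at a smaller change of -0.16 (adjusted p = 0.0407). It also passed with DESeq2. RPN2 passed with DESeq2 (adjusted p = 0.0442) and with a stricter filter on low values (edgeR adjusted p = 0.0398). DDOST read 76.5, 62.0 and 60.5 FPKM against 61.1, 78.9 and 78.4 FPKM, and DAD1 read 89.9, 74.5 and 99.0 FPKM against 82.7, 99.4 and 101 FPKM. Both overlapped between the groups (log2 fold changes -0.16 and -0.13, adjusted p = 0.387 and 0.435). Over the group 1 of 9 tested genes rose (11.1%, against 15.9% of all tested genes) and 2 fell (22.2%, against 17.6%). The other 6 missed the threshold, and the median log2 fold change was -0.14.

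**Figure D3:**
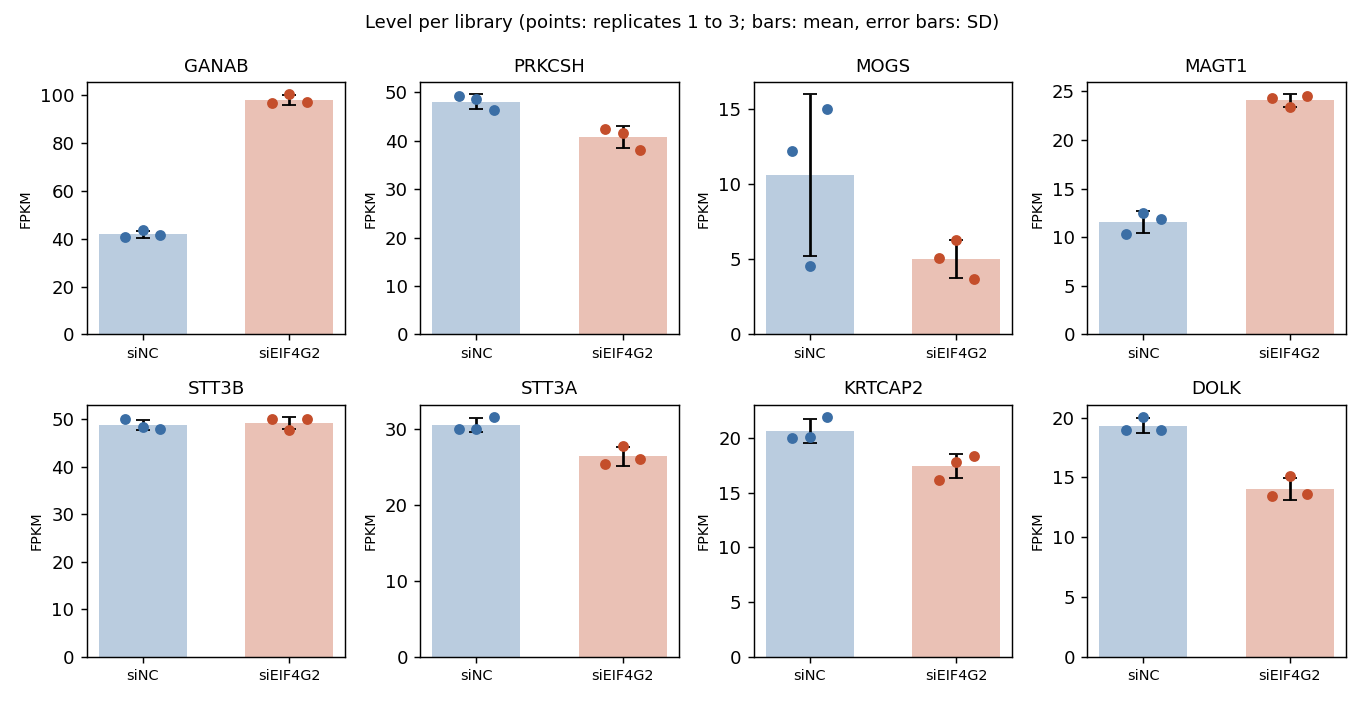
FPKM per library for 8 genes, with points for the replicates, bars from 0 for the mean and error bars for the SD. GANAB and MAGT1 are higher in each silenced library, PRKCSH, STT3A, KRTCAP2 and DOLK lower, and the MOGS controls spread from 4.56 to 14.96 FPKM.

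Glucosidase II trims the inner glucoses and so admits a glycoprotein to calnexin and releases it, and its subunits moved in opposite directions. GANAB, the catalytic subunit (ENSG00000089597, chr11:62624826-62646726, minus strand), read 96.5, 100.3 and 97.2 FPKM after silencing and 40.5, 43.6 and 41.4 FPKM in the controls. No other tested gene of the set rose as far, and the spread within each group was small (98.0 ± 2.02 against 41.8 ± 1.56 FPKM, SD, n = 3 each; log2 fold change 1.20, SE 0.05, edgeR adjusted p = 0.000207). By mean FPKM GANAB went from rank 9 among the 37 genes in the controls to rank 4. PRKCSH, the noncatalytic subunit that keeps GANAB in the reticulum (ENSG00000130175, chr19:11435288-11450968, plus strand), read 42.4, 41.7 and 38.1 FPKM against 49.2, 48.5 and 46.2 FPKM. Each silenced library lay below each control, and PRKCSH was 1.20-fold lower (40.7 ± 2.30 against 48.0 ± 1.56 FPKM; log2 fold change -0.26, SE 0.06, adjusted p = 0.018).

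The 2 subunits of glucosidase II were at similar levels per length in the controls and apart after silencing. The ratio of GANAB to PRKCSH FPKM was 0.824, 0.897 and 0.895 in the controls and 2.27, 2.41 and 2.55 after silencing. These ratios were 2.76-fold apart and did not overlap (log2 difference 1.47, SE 0.06; exact two-sided permutation p = 0.1, 0.15 adjusted over 6 ratios). GANAB kept its call under each of 15 alternative settings, with log2 fold changes of 1.17 to 1.23. The PRKCSH call was lost without siNC replicate 1 or 2 (adjusted p = 0.0614 and 0.0572). FPKM here uses a fixed length per gene, so these values do not tell isoforms apart.

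**Figure D4:**
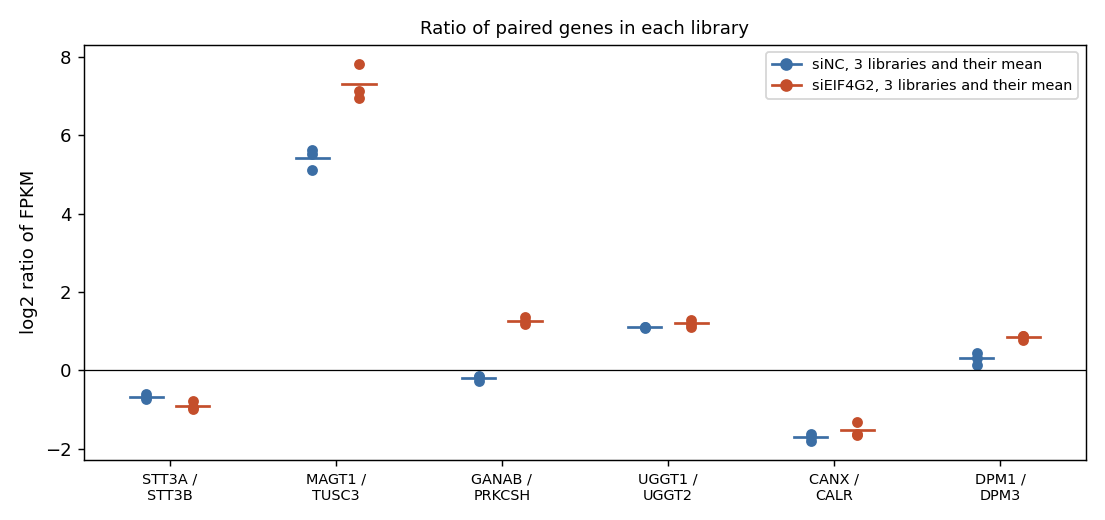
Log2 ratio of FPKM within each library for 6 pairs of genes, with points for libraries and a line at each group's mean. The silenced and control points are apart for GANAB to PRKCSH, MAGT1 to TUSC3, DPM1 to DPM3 and STT3A to STT3B, and overlap for UGGT1 to UGGT2 and CANX to CALR.

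MOGS, glucosidase I, which removes the outermost glucose, had the largest negative value of the set but did not pass. It read 5.10, 6.25 and 3.69 FPKM after silencing and 12.2, 4.56 and 14.96 FPKM in the controls. Control replicate 2 lay among the silenced libraries, and the highest control was 3.28 times the lowest. The log2 fold change was -1.10 (SE 0.45, edgeR adjusted p = 0.108) with all libraries and -1.46 (adjusted p = 0.0148) without siNC replicate 2, while DESeq2 on all 6 libraries gave an adjusted p of 0.0173.

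The lectin chaperones and the folding sensors did not pass. CALR, the most abundant of the 37 genes, read 562, 557 and 466 FPKM after silencing and 597, 633 and 616 FPKM in the controls, with no overlap (log2 fold change -0.25, SE 0.08, edgeR adjusted p = 0.0676). With DESeq2 on the same libraries CALR passed (adjusted p = 0.0422). CANX, its membrane-bound relative, read 184, 177 and 187 FPKM against 185, 182 and 199 FPKM, with overlap (-0.07, SE 0.04, adjusted p = 0.257). Their ratio overlapped between the groups as well (CANX to CALR 0.348 ± 0.0452 and 0.306 ± 0.0182). UGGT1, which adds a glucose back to misfolded glycoproteins, read 9.42, 8.22 and 9.82 FPKM against 9.60, 9.22 and 9.93 FPKM (-0.09, adjusted p = 0.331). Its relative UGGT2 read 4.14, 3.34 and 4.53 FPKM against 4.46, 4.25 and 4.67 FPKM (-0.18, adjusted p = 0.245). The ratio of UGGT1 to UGGT2 was 2.30 ± 0.148 after silencing and 2.15 ± 0.0224 in the controls, again with overlap. MAN1B1, the mannosidase that marks glycoproteins for disposal, read 11.96, 9.61 and 9.17 FPKM against 10.1, 9.86 and 11.0 FPKM (-0.04, adjusted p = 0.808). Over the group 1 of 8 rose and 1 fell (12.5% each, against 15.9% and 17.6% of all tested genes). The other 6 did not pass, and the median log2 fold change was -0.14.

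Genes that act beside these in the pathway were counted in the same test. A list of 7 other genes covered dolichol, assembly and the oligosaccharyltransferase. In it 2 rose (28.6%, against 15.9% of all tested genes), 0 fell (against 17.6%) and 5 missed the threshold. Its median log2 fold change was 0.12. NUS1, a subunit of the enzyme that builds the dolichol chain, read 14.2 ± 0.0331 against 9.90 ± 0.305 FPKM (0.50, SE 0.05, edgeR adjusted p = 0.000893), and DOLPP1, which recycles dolichol pyrophosphate, read 14.6 ± 1.09 against 11.8 ± 1.04 FPKM (0.28, SE 0.08, adjusted p = 0.049). NUS1 thus rose while DOLK, a later enzyme of the same route, fell. The DOLPP1 call was lost without any library but siNC replicate 3 (adjusted p of 0.0552 to 0.137).

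Among 13 enzymes that supply nucleotide sugars, 1 rose, 5 fell and 7 did not pass, with a median log2 fold change of -0.34. The background over all tested genes was 15.9% higher and 17.6% lower. UGP2, which makes UDP-glucose, read 23.5, 23.2 and 24.0 FPKM after silencing against 30.8, 32.9 and 32.6 FPKM (-0.47, SE 0.04, edgeR adjusted p = 0.0008). PMM1, a phosphomannomutase, and MPI, which makes mannose 6-phosphate, had log2 fold changes of -0.55 and -0.51 (adjusted p = 0.00888 and 0.0159). GFPT2, an isoform of the entry enzyme of hexosamine synthesis, fell the most of the called genes in this list, to 0.536 ± 0.214 from 1.19 ± 0.0542 FPKM (-1.16, SE 0.29, adjusted p = 0.0263). In siEIF4G2 replicates 1 and 3 it read 0.361 and 0.472 FPKM, under the 0.5 FPKM of the filter. UGP2, PMM1, MPI and GFPT2 lay lower in each silenced library than in any control. GMPPA, a regulatory subunit of GDP-mannose synthesis, also fell (-0.34, adjusted p = 0.0093). GNPNAT1, of UDP-N-acetylglucosamine synthesis, was the gene that rose (0.29, adjusted p = 0.00971). GMPPB, in the same list, had a larger negative value than GFPT2 but did not pass (-1.19, SE 0.37, adjusted p = 0.051). GMPPA, GNPNAT1 and GMPPB were named after their values were seen. GFPT2 lost its call without siEIF4G2 replicate 3 or any siNC library (adjusted p of 0.061 to 0.0825), and MPI without siNC replicate 1 (0.0533).

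Downstream of trimming, the counts went both ways. Of 15 tested folding, lectin and disposal partners, 1 rose, 3 fell and 11 did not pass, with a median of -0.09. The calls were 6.67% higher and 20% lower, against 15.9% and 17.6% of all tested genes. EDEM2, the mannosidase that starts the disposal of misfolded glycoproteins, read 16.2, 16.4 and 15.4 FPKM against 27.1, 24.6 and 27.2 FPKM (log2 fold change -0.74, SE 0.07, edgeR adjusted p = 0.000849). EDEM1, a relative, and LMAN2, a cargo lectin of the secretory route, read -0.27 and -0.41 (adjusted p = 0.0131 and 0.00298). NGLY1, the cytosolic enzyme that strips N-glycans from retrotranslocated proteins, read 0.15 (adjusted p = 0.0485), a call lost when any 1 library was left out (adjusted p of 0.068 to 0.143).

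Of 12 tested Golgi enzymes of N-glycan processing, 2 rose, 2 fell and 8 did not pass, with a median of -0.06. The rises and the falls were 16.7% each, near the 15.9% and 17.6% of all tested genes. ST6GAL1, which caps N-glycans with sialic acid, read 0.478, 0.49 and 0.419 FPKM after silencing and 2.13, 1.998 and 1.91 FPKM in the controls, 4.41-fold lower (log2 fold change -2.14, SE 0.10, edgeR adjusted p = 0.00022). Every silenced value lay under the 0.5 FPKM of the filter, so ST6GAL1 was tested only because its controls were higher. Its fall is therefore not independent of the filter. The galactosyltransferase B4GALT1, which acts just before ST6GAL1, rose from 45.7 ± 1.60 to 61.7 ± 1.005 FPKM (0.41, SE 0.04, adjusted p = 0.00153). MAN2A1, a Golgi mannosidase, and MGAT2, which starts the second branch, read 0.52 and -0.29 (adjusted p = 0.00479 and 0.0105). The 4 calls in this list held whichever library was left out.

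The stress genes of the reticulum did not move one way. Among the 16 genes there were 4 rises and 4 falls, 8 did not pass, and the list had a median log2 fold change of -0.04. Rises and falls were 25% each, against 15.9% and 17.6% of all tested genes. DNAJB9 and DNAJC3, cochaperones of HSPA5, fell (-0.47 and -0.23, edgeR adjusted p = 0.00339 and 0.0232), while SDF2L1, another partner of HSPA5, and ATF6, a stress sensor, rose (0.39 and 0.29, adjusted p = 0.0244 and 0.00866). The other 4, named after their values were seen, were the disulfide isomerases PDIA4 and PDIA6 (0.19 and 0.15, adjusted p = 0.0185 and 0.0219), the chaperone HSPA5 itself (-0.14, adjusted p = 0.024) and MANF, a secreted stress factor (-0.22, adjusted p = 0.0299). Of these 8, DNAJB9 and ATF6 alone kept their calls when each library was left out in turn. Without siNC replicate 2 the list held 1 rise and 1 fall, and without siNC replicate 3 it held 1 rise and 2 falls. The counts also dropped without siNC replicate 1 (3 and 1) and siEIF4G2 replicates 1 (3 and 2) and 3 (4 and 1).

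Translocation genes of the reticulum that do not handle glycans were set beside the glycan genes. Of 15, 0 rose, 4 fell and 11 did not pass, with a median log2 fold change of -0.13, close to the -0.17 over the 36 glycan genes. The falls were 26.7% of the list, against 17.6% of all tested genes, and 15.9% of all tested genes rose. SEC63, which couples the channel to HSPA5, read 8.02, 7.48 and 8.20 FPKM against 12.9, 12.3 and 12.6 FPKM (-0.70, SE 0.05, edgeR adjusted p = 0.000407). SSR2, SEC61B and SPCS3, of the translocon-associated complex, the channel and the signal peptidase, read -0.29, -0.24 and -0.17 (adjusted p = 0.0374, 0.0435 and 0.0371). SEC63 kept its call whichever library was left out. SPCS3 lost its call in each leave-out (adjusted p of 0.0651 to 0.105), and SSR2 and SEC61B lost theirs without siEIF4G2 replicate 1 or 3 and without siNC replicate 1 or 2 (0.0926 to 0.125).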

How the data were processed

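The authors deposited 1 table for the 6 libraries with, per the file headers, a count and an FPKM value per gene and library. The deposited counts are whole numbers, and the labels do not state how they were made. They were treated as estimated counts that the authors had rounded before they deposited them. Of 40 low FPKM values rescaled to reads, with each gene's scale taken from its high-count libraries, 20% came within 0.1 of a whole read. Values spread evenly between whole reads would also give 20%, so no excess at whole reads was seen. This is a check on the FPKM and not on the counts themselves. HISAT2 2.0 and StringTie 1.3.0 are named in the submitters' processing notes. What each did, the build and the annotation, and whether counting used strand were not given in the sources used here, and the protocol text speaks of an adipose type. Gene intervals overlapped GENCODE 29 on GRCh38 for 99.8% of 49060 symbols, so coordinates are given as GRCh38.

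The 13748 genes that reached 0.5 FPKM in 3 or more libraries were tested with edgeR 4.0.16 in R 4.3.3, by the quasi-likelihood test on the rounded estimated counts with TMM factors (0.985 to 1.02), a group term only, and two-sided p-values with Benjamini-Hochberg adjustment over the 13748 genes. Standard errors were derived from the log2 fold change and the F statistic (absolute change over root F). CPM uses TMM library sizes. The common coefficient of biological variation was 19.4%. Libraries of a group differed by more than sampling noise (chi-square per gene at least 68.5). The step was tested on simulated counts. Alternatives were DESeq2 1.42.0, limma 3.58.1 on log2(FPKM + 1) and log2(FPKM + 0.1), other filters and scalings, summed rows, a replicate block and each library left out. Ratios of FPKM were compared by exact permutation tests with scipy 1.17.1. Motifs were sought in RefSeq windows on GRCh38.p14. Named genes are all 37, up to 4 called genes with the largest change in each pathway list, and EIF4G2. The members and lists were chosen with earlier results of these data known.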

Additional observations from a re-analysis of the deposited data

How the results depend on the processing

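Of the 11 called genes, 4 (GANAB, MAGT1, DOLK and DPM2) kept the call under all 15 alternatives, 7 lost it in at least 1 leave-out, and 0 changed sign. Of the uncalled genes, 9 passed under at least 1 alternative. The number called lower, 9, was 14 with DESeq2 (38.9%, against 20.2% of all tested genes) and 5 without a filter (13.5%, against 7.90%). With 1 library left out it was 3 to 10 (8.33% to 27.8%, against 13.0% to 16.3%), lowest without siNC replicate 1. In the assembly group the 0 called higher became 1 with limma at either pseudocount (DPM1), and the 6 called lower became 4 without a filter and 3 to 7 in the leave-outs. In the oligosaccharyltransferase group the 1 called higher was 1 to 2 in the leave-outs. Its 2 called lower were 4 with DESeq2, 0 without a filter and 0 to 2 in the leave-outs, with 0 without siEIF4G2 replicate 1 or any siNC library. In the trimming group the 1 called lower was 3 with DESeq2 and 0 to 1 in the leave-outs. Over all tested genes the leave-outs called 1567 to 1891 higher and 1785 to 2243 lower. The cause was not tested, though fewer libraries and, without a filter, more genes (27064) enter the adjustment.

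Same-numbered libraries showed no shared deviation (correlations of same-numbered deviations 0.00114, 0.0317 and 0.0498, none over 0.1). Whether they were paired by design is not stated, and these values cannot tell. With a replicate block, 6 genes were called lower (16.7%, against 14.6% of all tested genes), 4 of them in the assembly group and 1 in the oligosaccharyltransferase group. Over all tested genes 1726 were then higher and 2010 lower. The block ended the calls of ALG9, ALG12, ALG13 and STT3A (adjusted p of 0.0502 to 0.0581) and brought ALG8 past the threshold (0.021).

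The sign reversed for 5 genes that did not pass. MPDU1 read -0.20 to 0.43 in the leave-outs, with -0.08, -0.20 and -0.01 without siEIF4G2 replicate 2, siNC replicate 2 and siNC replicate 3. STT3B read 0.0116 and 0.0118 with limma at the pseudocounts 1 and 0.1, and -0.0245 to 0.00667 in the leave-outs, positive without siNC replicate 1. ALG10B ranged from -0.17 to 0.00496, positive without siEIF4G2 replicate 2, and MAN1B1 from -0.15 to 0.0394, positive without siEIF4G2 replicate 3 or siNC replicate 3. ALG11 read 0.00769 with limma on log2(FPKM + 0.1), 0.00832 with the replicate block, -0.25 to 0.43 in the leave-outs, positive without siEIF4G2 replicate 2 or siNC replicate 2, and 0.54 with UTP14C summed, a setting chosen after seeing the data. Precision was limited for TUSC3, with at most 154 counts.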

Other observations

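Several of these genes share a start region with a gene on the other strand, and 11 of the 37 have a tested gene that starts within 1000 bases head to head. Of the 37, 29 overlap another gene of the table and 8 overlap another tested gene, so their counts may depend on how shared reads were assigned. Many of the untested partners had few or no counts. The share of overlapping genes over the whole table was not computed. In some pairs the neighbour passed the test and the glycan gene did not. The share of all tested neighbours that passed was not computed, and over all tested genes 33.4% passed in either direction. Whether the 2 genes of a pair differ in their change was not tested, and for ALG3 and ALG2 the changes were close to those of their neighbours. EXOSC8, an exosome subunit whose interval overlaps that of ALG5 by 552 bases, read 13.4, 14.1 and 12.8 FPKM after silencing and 10.6, 9.80 and 9.36 FPKM in the controls (log2 fold change 0.41, SE 0.08, edgeR adjusted p = 0.00902), while ALG5 read -0.16 (adjusted p = 0.167). EEF1AKMT4, a lysine methyltransferase gene that starts 710 bases from ALG3, read 19.5 ± 1.17 against 25.3 ± 2.06 FPKM (-0.40, SE 0.09, adjusted p = 0.019), while ALG3 read -0.36 (adjusted p = 0.31). SEC61B, a subunit of the translocation channel that starts 122 bases from ALG2, fell (-0.24, adjusted p = 0.0435), while ALG2 read -0.22 (adjusted p = 0.272). MOCS3, a molybdenum cofactor gene 263 bases from DPM1, read 0.03 (adjusted p = 0.87). PINK1-AS, which shares 427 bases with DDOST on the same strand, read 12.3 ± 0.675 against 14.8 ± 1.20 FPKM (-0.29, SE 0.08, adjusted p = 0.0361), while DDOST read -0.16 (adjusted p = 0.387). The neighbours were chosen after seeing the data.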
